A study of Mus musculus with 16 samples.

Results

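The telomeric end of mouse chromosome 5, from position 121000000 to the last listed site at 151.97 Mb (mm9), was examined as a target of 2 promoters assayed by circularised chromosome conformation capture (4C-seq). Members were all sites of the deposited site lists that start above this position on chromosome 5, called the telomeric stretch from here on. The 16 libraries held 20344 such entries out of 327988 in all. For libraries of the Pole/Pxmp2 promoter, which lies on the same chromosome, these sites are long-range contacts in cis. For libraries of the Cdca3/Usp5 promoter, which lies on chromosome 6, the same sites are contacts in trans.

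4C-seq starts from 1 chosen locus, the viewpoint, and reports which restriction fragments were ligated to it after crosslinking. Contacts in cis are usually most frequent near the viewpoint and become rarer with distance. Beyond the immediate neighbourhood, a promoter commonly meets megabase-sized blocks of chromatin that alternate with stretches it seldom meets, because active and inactive chromatin tend to occupy separate compartments of the nucleus. Contacts in trans are rarer and more variable between cell populations. Pole encodes the subunit of DNA polymerase epsilon that copies the leading strand. Its divergent neighbour Pxmp2 encodes a channel protein of the peroxisomal membrane. Cdca3 encodes a regulator of mitotic entry and Usp5 a deubiquitinating enzyme. The series title names condensin II, a complex that compacts chromosomes, and pRb, the retinoblastoma protein that restrains the cell cycle.

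Mouse embryonic fibroblasts were made from E13.5 embryos and used as proliferating cultures at passage 4. Each viewpoint was assayed in 4 Rb1+/+ and 4 Rb1L/L libraries. Rb1L/L cells carry the L allele of the retinoblastoma gene on both chromosomes, and the labels say nothing further of the allele, the strain or the agents used beyond the culture medium. Cells were numbered as 4 pairs of 1 culture of each genotype, and the same pair identifiers recur at both viewpoints, so 8 cultures were taken to underlie the 16 libraries. What the members of a pair share was not given in the sources used here, nor whether the cultures came from separate embryos, so p-values measure only the spread between these cultures. No marker of the cell type can be checked in lists of contact sites.

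Depth was unknown because the lists give no read counts, and the number of listed sites was the only measure of yield. Pole libraries listed between 6485 and 17522 sites over the whole genome, and Cdca3 libraries between 15802 and 39650. Each listed site carries the authors' own p- or q-value, at most 0.05, and each site of the telomeric stretch lay inside a significant region of the same library, with 0 exceptions. The Pole viewpoint is not marked in the lists. It was placed in the 2.61 Mb stretch without listed sites between 109.11 and 111.72 Mb, whose middle, 110.41 Mb, served as the origin for distances. Its sites then lay 10.59 to 41.56 Mb from the viewpoint on its telomeric side.

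In the RefSeq gene order of another build (GRCm38.p6), Pxmp2 and Pole are followed towards the telomere by the limb and heart regulators Tbx3 and Tbx5. The neurodevelopmental gene Auts2, the transcription factor gene Gtf2i, the elastin gene Eln and the homeobox gene Cux1 come next. Beyond them lie the actin gene Actb, the small GTPase gene Rac1, the receptor kinase gene Flt3 and the DNA repair gene Brca2. This order is background on the chromosome arm only. The lists name no gene, and no mm9 annotation was used here, so blocks and gaps are given by position and not by gene.

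From the Pole promoter, the telomeric end of chromosome 5 was contacted in a fixed series of blocks separated by gaps. The 4 Rb1+/+ libraries listed 1283, 1541, 2082 and 2188 sites there, and the 4 Rb1L/L libraries 1047, 2026, 2055 and 1941. The lowest count belonged to Rb1L/L replicate 1, which was also the library with the fewest sites genome-wide, and the groups overlapped. Merging the significant regions of all 8 libraries gave 13 blocks, of which 10 were called in every library. Those 10 were 0.77 to 2.68 Mb long with a median of 1.75 Mb. When regions up to 100 kb apart were joined, 11 blocks remained.

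**Figure D1:**
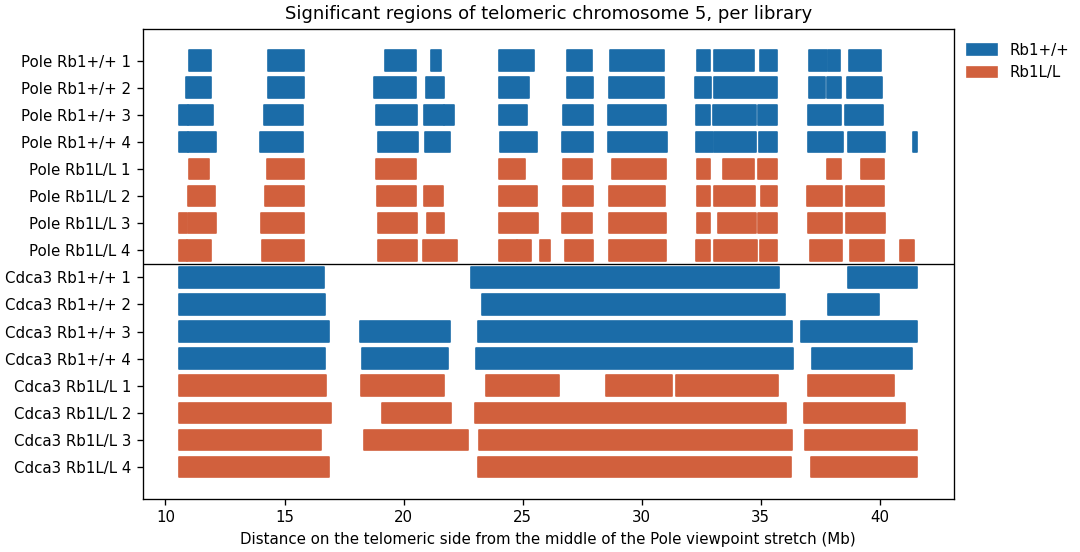
Significant regions of the telomeric stretch in each of the 16 libraries, 1 row per library, against distance in Mb from the middle of the Pole viewpoint stretch, with blue bars for Rb1+/+ and orange bars for Rb1L/L. The 8 Pole rows show much the same narrow blocks and gaps in both genotypes, whereas the 8 Cdca3 rows show few, long regions covering 67.8 to 90.8% of the stretch.

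The block nearest the viewpoint was called in all 8 Pole libraries and reached from 120.50 to 122.54 Mb. Its part inside the stretch held 109, 131, 153 and 173 sites in the Rb1+/+ libraries and 89, 140, 163 and 136 in the Rb1L/L libraries. Expressed per 1000 sites of chromosome 5, the block took 21.0 ± 2.91 sites in Rb1+/+ and 19.7 ± 2.41 in Rb1L/L (SD, n = 4 each). It contained the most densely listed 500-kb window of the whole stretch, 121.5 to 122.0 Mb, with 16.0 ± 4.00 sites per 1000 over the 8 libraries. That window also ranked highest among Cdca3 libraries, at 1.61 ± 0.368 sites per 1000 trans sites.

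The second block, 124.40 to 126.24 Mb, held 154 to 184 sites in Rb1+/+ libraries and 138 to 193 in Rb1L/L libraries. Its telomeric edge was placed within a range of 45.2 kb by all 8 libraries. Of its 224 distinct sites, 93 (41.5%) were listed in every Pole library, the highest share of any block. Per 1000 chromosome 5 sites it took 25.6 ± 6.16 in Rb1+/+ and 26.9 ± 5.91 in Rb1L/L.

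The third block, 129.15 to 131.00 Mb, lay beyond a long gap and held 184, 191, 259 and 269 sites in the Rb1+/+ libraries and 147, 241, 257 and 252 in the Rb1L/L libraries. Its rates were 33.5 ± 4.16 and 33.4 ± 3.14 per 1000, and the fitted difference was 0.00 on the log2 scale (95% interval -0.30 to 0.31). The window 130.0 to 130.5 Mb in this block was next in density at Pole, with 70 to 118 sites per library. In the Cdca3 libraries that window held between 0 and 27 sites, and only 4 of the 8 had any.

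Just beyond it, the block from 131.21 to 132.66 Mb varied more than its neighbours. The Rb1+/+ libraries listed 17, 28, 104 and 105 sites in it and the Rb1L/L libraries 0, 95, 68 and 178. It was called in 7 of 8 libraries and was absent from Rb1L/L replicate 1. Its rates were 8.14 ± 4.43 and 11.0 ± 9.68 per 1000, so the spread within a genotype exceeded the difference. None of its 215 distinct sites was listed in all 8 libraries.

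The block from 134.42 to 136.05 Mb had the sharpest centromeric edge of the 10 blocks called in all libraries: the 8 starts fell within 40.1 kb. Its telomeric edge ranged over 548 kb. Site counts were 130, 139, 140 and 190 in Rb1+/+ and 95, 178, 202 and 91 in Rb1L/L. Next to it, a short region at 136.14 to 136.55 Mb was called in Rb1L/L replicate 4 alone and rested on 1 site.

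The blocks from 137.05 to 138.38 Mb and from 139.00 to 141.46 Mb were called in all 8 libraries. The first held 80 to 150 sites per library and ended within a range of 57.5 kb. The second had the highest median over the 8 libraries of any block, 328 sites, with 195, 214, 375 and 379 in Rb1+/+ and 225, 358, 344 and 313 in Rb1L/L. Its rates were 41.5 ± 1.98 and 46.9 ± 7.77 per 1000 chromosome 5 sites. The highest value, 58.2, came from Rb1L/L replicate 1, and the groups overlapped.

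From 142.65 to 143.42 Mb lay a thin block with 24, 31, 33 and 31 sites in Rb1+/+ and 10, 20, 27 and 31 in Rb1L/L. Its rates were 4.50 ± 1.01 and 3.14 ± 0.711 per 1000, further apart than either SD, and the fitted log2 difference of -0.51 ± 0.67 did not pass the test (SE, limma adjusted p = 0.983). The libraries of the genotypes overlapped, at 3.53 to 5.64 and 2.57 to 4.06. Starting 4.85 kb beyond its outermost end, the block from 143.42 to 146.10 Mb was the longest at 2.68 Mb. Its telomeric edge was the sharpest among the 10 blocks called in all libraries, with the 8 ends inside 18.9 kb. Rates there were 38.1 ± 8.96 per 1000 in Rb1+/+ and 29.5 ± 3.12 in Rb1L/L, a fitted log2 difference of -0.35 (95% interval -0.76 to 0.07). The Rb1+/+ values of 43.8, 47.3, 33.3 and 28.1 and the Rb1L/L values of 30.8, 25.7, 28.4 and 33.0 overlapped.

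The last blocks lay 37.0 to 41.7 Mb from the viewpoint. From 147.37 to 148.86 Mb, libraries listed 48, 108, 190 and 196 sites in Rb1+/+ and 31, 200, 192 and 165 in Rb1L/L, and replicate 1 was the lowest of both genotypes. From 148.96 to 150.63 Mb they listed 134, 179, 222 and 261 sites in Rb1+/+ and 99, 263, 252 and 194 in Rb1L/L, with equal mean rates of 29.0 ± 2.95 and 29.0 ± 4.19 per 1000. The outermost block, 151.25 to 152.12 Mb, was called only in replicate 4 of each genotype, with 3 sites in Rb1+/+ and 32 in Rb1L/L.

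Both the blocks and the single sites within them recurred from library to library. Of the 30.97 Mb, 37.9% lay in a called region in all 8 Pole libraries and 36.0% in none, so that 59.2% of the base pairs ever called were called every time. On the remainder of chromosome 5 that share was 40.8%. That remainder includes the immediate neighbourhood of the viewpoint and also positions farther from it than the stretch reaches. Recurrence at matched distances on the centromeric side was not compared. Any pair of the 8 libraries shared 83.3 ± 6.63% of the base pairs called in either (28 pairs). Pairs within a genotype shared 82.7 ± 6.98% and pairs across genotypes 83.7 ± 6.56%. Base pairs called in at least 3 of 4 libraries amounted to 15.41 Mb in Rb1+/+ and 15.5 Mb in Rb1L/L, of which 14.87 Mb were common to both (96.5% and 96.0%). These shares are descriptions and were not tested.

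Single sites were followed across libraries after merging listed starts no more than 5 bp apart. Pole libraries listed 2906 distinct sites in the telomeric stretch, and 445 of them (15.3%) appeared in all 8 libraries. On the remainder of chromosome 5, which lies both nearer and farther from the viewpoint, 7.28% of 11085 distinct sites did so. Sites listed in a single library made up 12.1% in the telomeric stretch and 22.8% outside it. The sites listed in all 8 libraries were concentrated in the blocks at 124.40 Mb (93 sites), 129.15 Mb (85), 120.50 Mb (67) and 139.00 Mb (64). The 5 with the smallest median deposited value all fell between 130454527 and 130483176 in the block at 129.15 Mb. The lowest of these medians, at 130460194 to 130460200, was 1.53e-13.

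**Figure D2:**
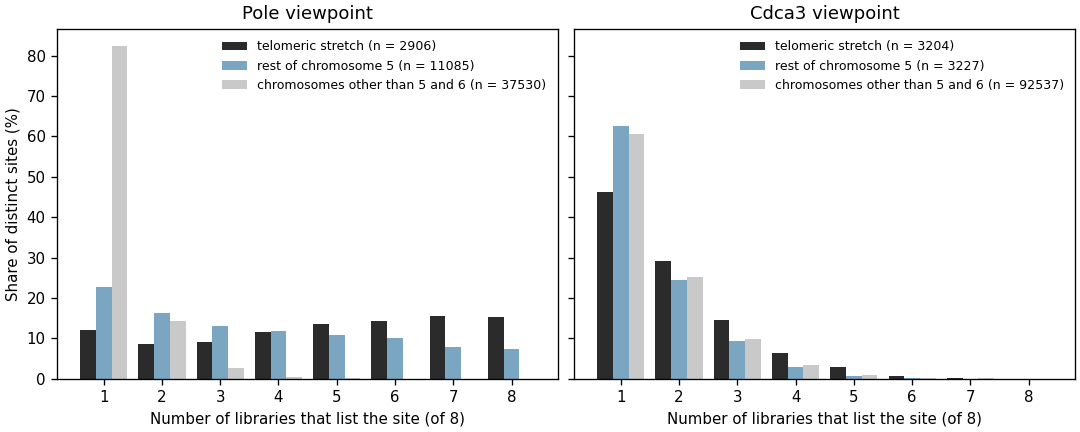
Share of distinct sites (vertical axis, percent) listed in 1 to 8 libraries of a viewpoint (horizontal axis), for the telomeric stretch (black), the remainder of chromosome 5 (blue) and the chromosomes other than 5 and 6 (grey). At Pole, 15.3% of the sites of the stretch were listed in all 8 libraries, and at Cdca3 46.3% were listed in only 1.

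Counted by listed sites, 11 gaps of at least 500 kb held none in any Pole library and together spanned 15.56 Mb, or 50.3% of the stretch. Called regions can reach past listed sites, so these gaps overlap parts of the blocks. Only 11.14 Mb (36.0%) lay in no called region of any Pole library. The gap that began at 143.06 Mb lay mostly within the adjoining blocks at 142.65 and 143.42 Mb. The longest ran from 126.01 to 129.37 Mb (3.36 Mb), followed by 122.30 to 124.65 Mb (2.34 Mb) and 132.49 to 134.59 Mb (2.10 Mb). Gaps of 1.58 Mb and 1.64 Mb began at 141.28 Mb and 145.95 Mb. Shorter ones began at 130.84, 135.85, 136.36, 138.21, 143.06 and 150.45 Mb and were 0.51 to 0.98 Mb long. The gaps at 135.85 and 136.36 Mb were separated by the 1 site of the region called in Rb1L/L replicate 4.

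Listing from the Pole promoter did not thin out detectably towards the telomere. The nearest 10 Mb held 30.7 ± 3.01% of the sites of the stretch, the next 10 Mb held 33.4 ± 2.38%, and the 10 Mb after that held 35.7 ± 3.20% (n = 8 libraries). Called regions covered 45.0 ± 4.33%, 54.1 ± 6.88% and 61.9 ± 6.71% of the same intervals. The log2 ratio of sites in the farthest against the nearest 10 Mb was 0.215 ± 0.253, above 0 in 6 of 8 libraries, and its 95% interval was -0.00151 to 0.381 (exact two-sided sign-flip permutation test, p = 0.0547). Rb1L/L replicate 1 went the other way at -0.318, and without it the ratio was 0.291 (exact permutation p = 0.0312). Without Rb1+/+ replicate 1 it was 0.247 (exact permutation p = 0.0469). With sites of a deposited value under 0.01 only, the ratio was -0.0357 (exact permutation p = 0.836).

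Site density in the telomeric stretch was 57.2 ± 13.7 listed sites per Mb, against 43.5 ± 12.6 on the remainder of chromosome 5. The log2 ratio was 0.415 ± 0.101 and positive in 8 of 8 libraries (95% interval 0.322 to 0.496, exact sign-flip permutation p = 0.00781, the smallest that 8 libraries allow). Per distinct site listed in any of the 16 libraries, the log2 ratio was 0.0124 (exact permutation p = 0.734). That denominator was counted in these same lists, from both viewpoints. It is not a count of available restriction sites, so this ratio does not show what lies behind the density difference. On the centromeric side at matched distances, 68.86 to 99.83 Mb, density was 55.4 ± 16.4 sites per Mb. The telomeric to centromeric log2 ratio was 0.0686 ± 0.114 (95% interval -0.0304 to 0.171, exact permutation p = 0.148). It became -0.0726 with the viewpoint at the telomeric end of its stretch (exact permutation p = 0.0938) and -0.216 per distinct listed site (exact permutation p = 0.00781). The distinct sites include those of Cdca3 libraries, which listed 24.9 per Mb in the stretch and 1.43 per Mb at the matched distances. The part of these Cdca3 sites in the ratio of -0.216 was not tested. The density of HindIII sites on either side was not used here, because that needs the mm9 sequence.

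From the Cdca3 promoter on chromosome 6, the telomeric end of chromosome 5 was also contacted, in fewer and much longer regions. The Rb1+/+ libraries listed 634, 672, 759 and 811 sites there and the Rb1L/L libraries 532, 1084, 1019 and 670. The lowest and the highest count were both Rb1L/L, so the Rb1+/+ values lay within the Rb1L/L range. Each library called 3 to 6 regions, against 11 to 16 at Pole. Regions reaching past either end of the stretch were cut there. The longest region inside the stretch then measured 6.17 to 13.3 Mb, against 2.25 to 2.66 Mb at Pole. The 6.17 Mb was what remained of a region cut at the start of the stretch.

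The 4 merged Cdca3 blocks ran from 109.89 to 127.35 Mb, 128.58 to 133.12 Mb, 133.23 to 146.76 Mb and 147.08 to 152.53 Mb. The second of them was called in 5 libraries, 2 Rb1+/+ and 3 Rb1L/L, and the others in all 8. The block at 133.23 Mb was intact in 7 libraries and was broken into several regions in Rb1L/L replicate 1. In the middle 10 Mb of the stretch that library listed 76 sites, against 229 to 421 in the others.

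Trans sites of Cdca3 gathered at the telomeric end of chromosome 5. Density there was 24.9 ± 6.19 sites per Mb, against 5.31 ± 1.56 on the remainder of chromosome 5 and 8.66 ± 2.90 over the chromosomes other than 5 and 6. The log2 ratio to the remainder of chromosome 5 was 2.25 ± 0.187 (a 4.77-fold difference, 95% interval 2.09 to 2.43), positive in 8 of 8 libraries (exact sign-flip permutation p = 0.00781). It was 1.58 with the stretch begun 5 Mb closer to the telomere (exact permutation p = 0.00781). Against the other chromosomes it was 1.56 ± 0.208 (2.96-fold, 95% interval 1.40 to 1.74), again in 8 of 8 libraries (exact permutation p = 0.00781). Per distinct site listed in the 16 libraries, the ratio to the remainder of chromosome 5 was 1.85 (exact permutation p = 0.00781). That to the other chromosomes was 0.111 (exact permutation p = 0.188) and did not pass the threshold. This denominator, itself counted in these libraries, includes Pole sites. Pole libraries listed 57.2 per Mb in the stretch, in cis, and 2.67 per Mb on the other chromosomes, and the part of that in the 0.111 was not tested. Averaged over whole chromosomes, the highest density among the 18 others was 12.4 sites per Mb, on chromosome 11, and stretches of like length on them were not compared. Of all Cdca3 sites on chromosome 5, 55.6 ± 3.18% lay in the telomeric stretch, and of all Pole sites on it 26.0 ± 1.34%.

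**Figure D3:**
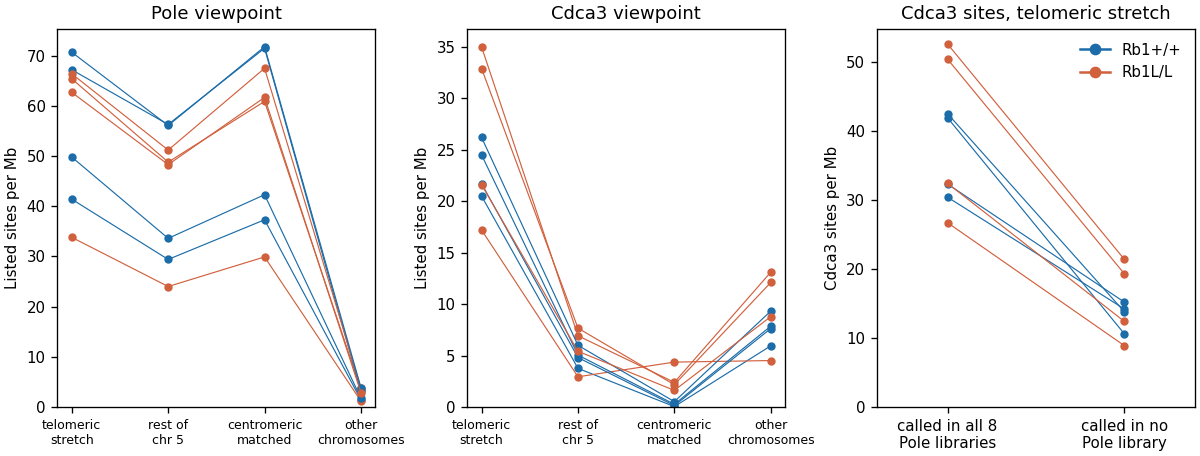
Listed sites per Mb (vertical axes, linear) in each library, 1 line per library, blue for Rb1+/+ and orange for Rb1L/L. The first and second panels give the telomeric stretch, the remainder of chromosome 5, the centromeric side at matched distances and the other chromosomes for Pole and Cdca3, and the last panel gives Cdca3 sites where all 8 or no Pole libraries called a region, where all 8 lines fall from left to right.

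Within the stretch, the farthest 10 Mb held a smaller share of the Cdca3 sites, although called regions covered more of it. The nearest 10 Mb held 35.2 ± 6.79% of the Cdca3 sites, the next 10 Mb 35.0 ± 9.38% and the 10 Mb after that 28.7 ± 4.78%. Called regions covered 75.2 ± 11.6%, 81.2 ± 10.9% and 87.4 ± 9.31% of the same intervals, and this rise was not tested. The log2 ratio of the farthest to the nearest 10 Mb was -0.295 ± 0.306 and below 0 in 6 of 8 libraries (95% interval -0.572 to -0.0262, exact sign-flip permutation p = 0.0312). Leaving out any of 6 libraries, namely Rb1+/+ replicates 1, 2 and 4 or Rb1L/L replicates 1, 2 and 3, brought the exact permutation p to 0.0625, with ratios between -0.314 and -0.231.

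The pair of viewpoints differed in how the stretch was occupied. In the same culture, called regions covered less of it at Pole than at Cdca3 by 28.5 ± 7.63 percentage points (95% interval of Pole minus Cdca3 -34.9 to -21.3), lower in 8 of 8 cultures (exact sign-flip permutation p = 0.00781). Inside called regions the order was the opposite, with 108 ± 17.0 sites per Mb at Pole and 30.7 ± 5.66 at Cdca3. That log2 ratio was 1.82 ± 0.223 (3.52-fold, 95% interval 1.60 to 2.02, exact permutation p = 0.00781). The median spacing between neighbouring listed sites was 3.97 ± 0.454 kb at Pole and 15.6 ± 2.29 kb at Cdca3. The authors' region calls for cis and trans chromosomes may have used different settings, and their part in these differences was not tested.

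Recurrence of single sites was low at Cdca3. Of 3204 distinct sites in the stretch, 46.3% were listed in 1 library and 1 site, at 135511712 to 135511717, was listed in all 8. On the remainder of chromosome 5, 62.6% of 3227 distinct sites were listed in 1 library and 0 in all 8. Called base pairs recurred far more than sites: 56.1% of the stretch was called in all 8 Cdca3 libraries and 5.41% in none, against 8.69% and 55.8% of the remainder of chromosome 5.

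Most base pairs called at Pole were also called at Cdca3, whose regions covered most of the stretch in any case. Within a culture, 90.8 ± 9.34% of the base pairs called at Pole were also called at Cdca3, which covered 80.8 ± 9.12% of the whole stretch. Cdca3 libraries listed 38.6 ± 9.61 sites per Mb in the 11.7 Mb called in all 8 Pole libraries and 14.5 ± 4.20 in the 11.1 Mb called in none. The log2 ratio was 1.43 ± 0.295 (2.70-fold, 95% interval 1.19 to 1.68), positive in 8 of 8 libraries (exact sign-flip permutation p = 0.00781). With the stretch begun 5 Mb closer to the telomere, it was 2.46 (exact permutation p = 0.00781). Both viewpoints can list only positions with a usable restriction site, and the part of that in this ratio was not tested. Of the distinct sites, 1843 were listed at both viewpoints, which is 63.4% of the Pole sites and 57.5% of the Cdca3 sites, and 0 were listed in all 16 libraries.

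By listed sites, the match had named exceptions in both directions. The Pole gap from 122.30 to 124.65 Mb held 0 Pole sites in 8 libraries and 430 distinct Cdca3 sites, with 77 to 155 per library. All 4 windows that had Cdca3 sites in 8 of 8 libraries and no Pole site lay in it, between 122.5 and 124.5 Mb. Its windows 124.0 to 124.5 Mb and 123.0 to 123.5 Mb ranked 3 and 4 in density at Cdca3, with 15 to 39 and 19 to 40 sites per library. This gap lay 11.9 to 14.2 Mb from the Pole viewpoint, and why the Pole lists had no site in it was not tested.

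The converse occurred at 131.48 to 132.15 Mb, inside the variable Pole block: 7 Pole libraries listed 122 distinct sites there, with 0 to 96 per library, and no Cdca3 library listed any. By called regions it was no exception in the 5 libraries that called the Cdca3 block at 128.58 Mb. Their regions covered all or most of it. Other places were empty or nearly so at both viewpoints. From 126.01 to 129.37 Mb, Pole listed 0 sites and the Cdca3 libraries 1 to 12 each. From 145.95 to 147.58 Mb, none of the 16 libraries listed a site, and the last Pole and Cdca3 sites before this gap lay 2.52 kb apart. Of the 11 Pole gaps, 10 held at least 1 Cdca3 site and 5 held sites of all 8 Cdca3 libraries.

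In 500-kb windows, 26 of 62 had Pole sites in all 8 libraries and 21 had none, while 24 had Cdca3 sites in all 8 and 13 had none. In 13 windows both viewpoints were listed in every library. Across the 62 windows the mean rates of the viewpoints correlated with Pearson's r = 0.49 and Spearman's rho = 0.47. Windows share libraries and restriction-site content and are not independent, so these coefficients are descriptions.

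**Figure D4:**
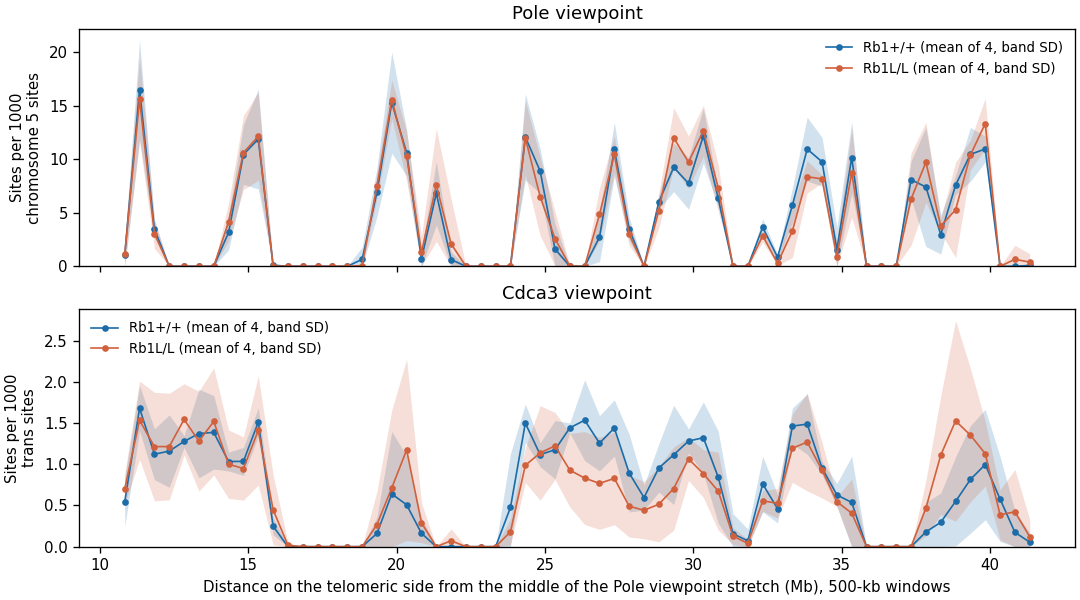
Listed sites per 500-kb window against distance from the middle of the Pole viewpoint stretch (Mb), per 1000 chromosome 5 sites for Pole (upper panel) and per 1000 trans sites for Cdca3 (lower panel), as the mean of 4 libraries per genotype with a band of 1 SD. The Pole profiles of both genotypes rise and fall at the same distances, and the lower panel shows Cdca3 sites between 11.9 and 14.2 Mb where the Pole profile is at 0.

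Between the genotypes, no tested difference in Pole contacts at the telomeric end passed its threshold. Of every 1000 chromosome 5 sites, 259.7 ± 19.0 lay in the telomeric stretch in Rb1+/+ and 259.9 ± 7.79 in Rb1L/L (SD, n = 4 each). The difference, Rb1L/L minus Rb1+/+, was 0.238 with a 95% interval of -26.3 to 31.5 (exact two-sided permutation test over 70 assignments, p = 0.971, where the smallest possible is 0.0286). The Rb1+/+ values were 270.4, 280.3, 239 and 249 and the Rb1L/L values 271, 261, 254 and 254, so the Rb1L/L libraries lay within the Rb1+/+ range. Called regions covered 52.7 ± 4.52% and 51.9 ± 7.19% of the stretch, a difference of -0.829 percentage points (95% interval -15.9 to 10.7, exact permutation p = 0.829). True differences anywhere inside these intervals remain compatible with these libraries, and power was not computed.

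At Cdca3, 40.9 ± 3.78 of every 1000 trans sites lay in the stretch in Rb1+/+ and 39.1 ± 7.72 in Rb1L/L. The difference was -1.82 (95% interval -12.6 to 12.7, exact permutation p = 0.657). The Rb1L/L values were 50.5, 36.1, 36.6 and 33.3, and the highest of all 8 libraries was Rb1L/L replicate 1. Without Rb1L/L replicate 1 the difference was -5.61 (exact permutation p = 0.0857). Coverage was 79.3 ± 11.7% in Rb1+/+ and 82.2 ± 7.23% in Rb1L/L, a difference of 2.96 points (95% interval -15.2 to 23.0, exact permutation p = 0.657). The change of coverage with genotype did not differ detectably between viewpoints: the difference of differences was -3.79 points (95% interval -19.4 to 16.5, exact permutation p = 0.514).

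**Figure D5:**
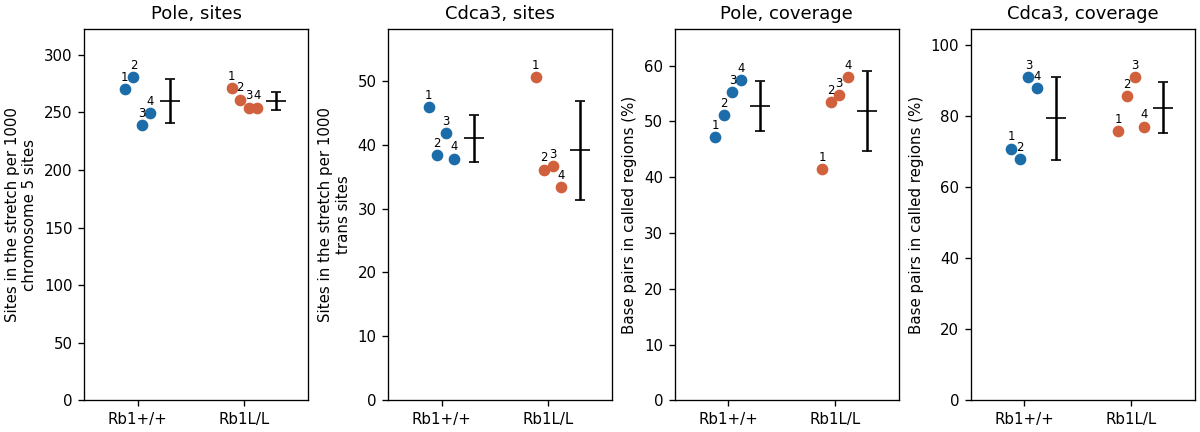
Sites of the telomeric stretch per 1000 chromosome 5 sites (Pole) or per 1000 trans sites (Cdca3), and the percent of base pairs in called regions, for each library. Points are libraries labelled by replicate number, the bar beside them is the mean with its SD (n = 4), all axes start at 0, and the genotypes overlap in every panel.

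Window by window, limma with Benjamini-Hochberg adjustment called 0 of 39 Pole windows of the stretch at an adjusted p under 0.05, where it called 0% of all 167 chromosome 5 windows tested. At an unadjusted p under 0.05 it gave 0 of the 39 and 2 of the 167. The median log2 difference was -0.04 over the 39 windows and 0.01 over all 167, and 19 were higher and 20 lower in Rb1L/L. The intervals were wide, with a median half-width of 1.33 on the log2 scale. Of the 62 windows, 23 held too few Pole sites to be tested.

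The Pole windows with the smallest p-values illustrate that width. In 139.5 to 140.0 Mb the Rb1+/+ libraries listed 28, 54, 94 and 92 sites and the Rb1L/L libraries 62, 82, 95 and 74, a log2 difference of 0.38 ± 0.27 (SE, limma adjusted p = 0.983), and 0.19 without Rb1+/+ replicate 1. In 150.0 to 150.5 Mb they listed 52, 69, 84 and 94 against 65, 98, 93 and 95 (0.27 ± 0.19, limma adjusted p = 0.983), and 0.16 without Rb1L/L replicate 1. Lower in Rb1L/L were 143.5 to 144.0 Mb, with 36, 35, 43 and 34 sites against 0, 43, 23 and 37, and 149.0 to 149.5 Mb, with 37, 42, 74 and 56 against 0, 75, 66 and 25. In both of these the 0 belonged to Rb1L/L replicate 1, the library with the fewest sites. Their log2 differences of -1.64 and -1.65 became -0.38 and -0.24 without it.

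At Cdca3, limma called 0 of 48 windows of the stretch, and 0% of the 1732 tested on all chromosomes but 6. At an unadjusted p under 0.05, 3 of the 48 (6.25%) and 85 of the 1732 (4.91%) passed. The windows 136.5 to 137.0 Mb and 137.5 to 138.0 Mb were lower in Rb1L/L by log2 differences of -1.56 ± 0.65 and -1.50 ± 0.67 (SE, limma adjusted p = 0.749 for both). The first held 27, 34, 23 and 21 sites in Rb1+/+ and 0, 35, 27 and 24 in Rb1L/L, and the second 26, 26, 24 and 23 against 0, 32, 28 and 25. Here too the 0 was Rb1L/L replicate 1, and without it the differences were -0.42 and -0.36. Higher in Rb1L/L was 149.0 to 149.5 Mb, with 0, 3, 19 and 21 sites against 35, 37, 21 and 16 (2.11 ± 1.01, limma adjusted p = 0.749), and 1.09 without Rb1+/+ replicate 1. It was followed by 148.5 to 149.0 Mb, with 0, 0, 13 and 10 against 23, 23, 18 and 17.

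Whole blocks gave the same picture. Limma called 0 of the 12 Pole blocks with enough sites in the stretch, and 0% of 47 blocks on chromosome 5, while 0 of the 12 and 1 of the 47 had an unadjusted p under 0.05. Their log2 differences ran from -0.78 to 0.83, the extremes belonging to the blocks at 131.21 and 151.25 Mb that were missing from some libraries. The -0.78 at 131.21 Mb ran against the mean rates, which were higher in Rb1L/L, and was 0.89 without Rb1L/L replicate 1, which had no site there. Limma also called 0 of the 4 Cdca3 blocks, and 0% of 221 merged regions tested. Of the 4, 1 had an unadjusted p under 0.05, as did 10 of the 221.

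That block, 133.23 to 146.76 Mb, had rates of 28.0, 24.1, 22.1 and 19.7 per 1000 trans sites in Rb1+/+ and 13.9, 19.1, 18.4 and 17.6 in Rb1L/L. Means were 23.5 ± 3.52 and 17.3 ± 2.35, a log2 difference of -0.44 ± 0.13 (SE, 95% interval -0.73 to -0.15, limma adjusted p = 0.648). Each Rb1L/L rate was below each Rb1+/+ rate, which held for 2.26% of the 221 merged regions, and as many (2.26%) had each Rb1L/L rate above. Site counts themselves, 386, 424, 401 and 422 against 146, 574, 514 and 354, overlapped. Leaving out each library in turn gave log2 differences of -0.52 to -0.34.

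No block leaned towards a genotype when presence was counted. Of the 13 Pole blocks, 0 were present in 3 or 4 libraries of either genotype and in no more than 1 of the opposite genotype, as 3.07% of 326 merged Pole regions genome-wide were. Of the 4 Cdca3 blocks, 0 leaned in this way, against 4.79% of 292. Among the 2906 distinct Pole sites, 3 (0.103%) were listed in every Rb1+/+ and in no Rb1L/L library, near the 0.129% of 13991 sites over chromosome 5. They lay at 125425671, 143036833 and 145927239 and are named because they were so few. The reverse pattern was found at 0 sites, against 0.0715% over chromosome 5.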

How the data were processed

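Chromatin was cut with HindIII, ligated, cut with NlaIII and circularised before inverse PCR at each viewpoint, per the labels' protocols. Per the deposited files, each library has a list of sites with a p-value or q-value (which of them is not stated) and a list of significant regions. The build is mm9 in the submitters' processing notes. Which aligner and caller made the lists, with what thresholds and whether alike in cis and trans, was not given in the sources used here. A list of sites without read counts cannot tell a weak contact from one that was missed at low depth.

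Sites starting above 121 Mb on chromosome 5 were counted per library. Sites were merged across libraries when starts followed within 5 bp, and regions when they overlapped by at least 1 bp. Genotypes were compared by exact two-sided permutation over 70 assignments and libraries or cultures by exact sign flips (256 patterns), with 95% intervals from inverting the same tests. Windows of 500 kb and blocks with at least 8 sites were fitted with limma 3.58.1 (R 4.3.3, trended empirical Bayes) on log2 of sites plus 0.5 per 1000 sites of chromosome 5 (Pole) or of all chromosomes but 6 (Cdca3), with Benjamini-Hochberg adjustment over each whole table. The fit was also run on simulated data with large changes and without whole regions dropping out of single libraries. That run does not measure the power of the fits here. The block that spans 121 Mb was split there.

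Text names each merged Pole block, each Pole gap of at least 500 kb, the densest windows, per fit the 2 windows with the smallest p in each direction, and sites listed in all 8 libraries (at most 5). Added after seeing the data were the naming of Cdca3 blocks, the block fits, and the ratios of the stretch to the remainder of chromosome 5, of the farthest to the nearest 10 Mb, of Cdca3 sites in Pole blocks to those outside, and of site density inside regions between viewpoints. Members and rules were chosen with earlier results of these data known.

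Deviations from the group means were correlated within same-numbered pairs of genotypes. The values were 0.28, -0.07, 0.11 and -0.10 for Pole and 0.15, 0.07, 0.11 and 0.04 for Cdca3. Pairing was not used in the main tests. At Cdca3 every value was positive, and 7 libraries correlated best with their own number in the other genotype, against 2 at Pole. The small correlations therefore did not settle whether pairing can be ignored at Cdca3. Results with the replicate number as a block are given at the end.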

Additional observations from a re-analysis of the deposited data

Results flagged for a closer look

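Of 76 groups of 4 libraries checked, 8 had a library set apart from the other members of its group. Chance alone would mark about 1 in 20 groups of independent, continuous values. The groups here share libraries, and in some every library but 1 was at 0, where any site sets that library apart. The 8 are therefore not read against that rate. Rb1L/L replicate 1 was set apart at both viewpoints. At Pole it listed 1047 sites in the telomeric stretch, against 1941 to 2055 in the other Rb1L/L libraries, and its log2 ratio of the farthest to the nearest 10 Mb was -0.318, against 0.248 to 0.360. At Cdca3 its rate in the block nearest the Pole promoter was 20.4 per 1000 trans sites, against 9.94 to 10.7. Its longest region inside the stretch was 6.17 Mb, against 13.1 Mb in the other Rb1L/L libraries. That 6.17 Mb was what remained of a region cut at the start of the stretch, so it is not the region's full length. Rb1L/L replicate 1 was the library with the fewest sites genome-wide at each viewpoint, and the part of yield in these values was not tested.

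The remaining cases concern replicate 4 at Pole. In Rb1L/L replicate 4 the block from 134.42 to 136.05 Mb took 11.9 per 1000 chromosome 5 sites, against 22.9 or more in the other Rb1L/L libraries. The same library had 0.131 per 1000 in the region at 136.14 Mb, where the other Rb1L/L libraries had 0. In the outermost block, at 151.25 Mb, Rb1+/+ replicate 4 had 0.341 and Rb1L/L replicate 4 had 4.19 per 1000, and the other 3 libraries of each genotype had 0.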

How the results depend on the processing

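Alternatives changed the start of the stretch, the limit on the deposited value, the denominator, the window size, the pseudocount, the filter, the viewpoint position and the libraries used. The genotype differences, none of which passed a test, changed sign in some settings. The Pole site rate difference was -7.49 per 1000 of all sites, and -6.62 to 7.13 when each library was left out in turn. At Cdca3 it was 1.37 with deposited values under 0.01 and -5.61 to 0.113 with libraries left out, and coverage differences ranged from -2.82 to 2.65 points (Pole) and -0.878 to 6.81 points (Cdca3). The telomeric to centromeric log2 ratio was -0.0726 with the viewpoint at the telomeric end and -0.216 per distinct listed site. Per distinct listed site, the Cdca3 ratio to other chromosomes was 0.111 and the Pole ratio to the remainder of chromosome 5 was 0.0124, both past the threshold before. The distinct sites were counted in these same lists, from both viewpoints, and are not a count of available restriction sites. The farthest to nearest ratio at Pole was -0.0357 with deposited values under 0.01 and 0.183 to 0.291 with libraries left out, and at Cdca3 -0.352 to -0.231. Why these moved was not tested. Log2 block differences that changed sign with a library left out ranged from -0.06 to 0.21 (124.40 Mb), -0.06 to 0.08 (129.15 Mb), -1.61 to 0.89 (131.21 Mb), -0.28 to 0.12 (134.42 Mb), -0.09 to 0.20 (137.05 Mb), -0.23 to 0.42 (147.37 Mb) and -0.08 to 0.05 (148.96 Mb) at Pole, and from -0.25 to 0.10 in the Cdca3 block nearest the Pole promoter.

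With the replicate number as a block, the Pole rate difference of 0.238 had an exact paired p of 0.875 and the Cdca3 difference of -1.82 one of 0.500, where 4 pairs cannot reach 0.05, and limma called 0 windows and 0 blocks. Of 8 libraries, 2 at Pole and 7 at Cdca3 correlated best with their own number in the other genotype. Without read counts, a site missing from a small library cannot be told from one not contacted.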
